A study of Mus musculus with 28 samples.

Results

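The genes described here are genes of mitosis and of the passage from G2 into M phase of the cell cycle, followed across all 12 groups of arrays in a mouse study of topoisomerase IIβ (Top2β). They were taken by gene symbol from a list of 50, and no measured value entered that rule. The list itself was chosen with earlier results of these data known. Of the 50, 49 were measured, among 19938 genes in all, each by 1 probe set. Ccnb1 was not analysed here, and the listed Sgol1 stands under its current symbol Sgo1.

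Total RNA of cells of strain 129SvEv was hybridised to Affymetrix arrays, 28 in number. Top2β knockout and wild-type cells were compared at 4 stages: embryonic stem (ES) cells, neuronal progenitors (NP cells) and TN day 2, with 2 arrays for each genotype at each of these, and TN day 6, with 3 arrays for each genotype. The labels do not spell out TN. At TN day 5, neurons derived in culture had received ICRF-193 or its solvent DMSO (2 arrays each), and glutamatergic neurons of the cortex isolated at E16.5 had received ICRF-193 or DMSO (3 arrays each). ICRF-193 is a catalytic inhibitor of topoisomerase II that acts on both the α and the β enzyme. The genotype of the cells in the drug experiments and the number of knockout clones are not given in the labels. One treatment text stands on every sample: ICRF-193 at 50 µM, or DMSO, from TN day 2 to 5 with renewal every 24 h. How long the cortical neurons were treated is therefore unclear. Nothing in the labels shows that replicates came from separate cultures or animals, so every p-value below measures only the spread between arrays, which may be technical. In such bulk samples, fewer cells of a dividing type and less RNA per cell cannot be told apart.

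The targeted gene was lower on every knockout array than on every wild-type array of its stage. Top2b had log2 levels of 7.11 and 5.79 in knockout ES cells, against 7.96 and 7.52 in wild type. At TN day 2 the levels were 8.99 and 8.94 in knockout cells, against 11.40 and 11.35 in wild type. Markers followed the labels: the mean of 9 pluripotency genes was 9.54 to 10.72 on the ES arrays and at most 6.15 elsewhere. The mean of 12 neural progenitor and radial glia genes was highest in NP cells (9.85 to 10.19). The mean of 10 neuronal genes was 10.47 to 11.39 at the TN stages and in cortical cells, against 9.14 to 9.30 in NP cells and 7.09 to 7.70 in ES cells. Arrays of a group correlated at 0.990 to 0.997 over all genes, except the pair of knockout ES arrays (0.967). Replicate 1 of that pair had the lower pluripotency mean (9.54 against 10.71) and the higher mesenchymal mean (9.56 against 7.86 over 8 genes), and it was below replicate 2 for 44 of the 49 mitotic genes.

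Mitosis begins when cyclin-dependent kinase 1 and its cyclins pass a threshold of activity. Chromosomes are then compacted by condensin, captured by kinetochores, held under the spindle checkpoint and released once the anaphase-promoting complex is active. Most genes of this programme are transcribed late in the cell cycle from promoters with a cell cycle homology region (CHR) and CCAAT boxes. The CHR is bound by the MuvB complex, which represses together with p130 and E2F4 in quiescent cells (the DREAM complex) and activates together with B-MYB and FOXM1 in cycling cells. Neurons leave the cell cycle when they differentiate, whereas neural progenitors and radial glia keep dividing, so these transcripts are widely read as a sign of cycling cells in developing neural tissue.

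Promoters are shown because the 49 genes moved largely together. In the RefSeq table (GRCm38.p6), 39 of the 49 had a window of 300 bases, running from 250 before to 50 after the transcript start. The CHR was searched as TTTGAA or TTCGAA and the CCAAT box as CCAAT, each on both strands. A CHR match was present in 33 of the 39 windows (84.6%), against 5254 of the 27025 genes of the table (19.4%). A CCAAT match was present in 27 windows (69.2%, against 37.9% of all genes), and both motifs together in 26 (66.7%, against 7.7%). The 6 windows without a CHR match belonged to Birc5, Cenpe, Melk, Ncaph, Nuf2 and Nusap1. Of these, only the Cenpe window had a CCAAT match. Birc5, Melk, Ncaph and Nusap1 nevertheless fell from NP cells to TN day 2 in wild type (log2 fold changes of -1.39, -1.05, -1.52 and -1.92). A match describes the letters in the window and is no evidence of binding. Bub1 is shown as the member with the largest change in knockout cells at TN day 6 and in treated cortical neurons, and Ccnb2 as one of the steepest decliners in differentiation. Spc25 and Nuf2, subunits of one kinetochore complex, are shown because they did not fall by TN day 2. The Spc25 window has both motifs and the Nuf2 window has neither. All are given 5′ to 3′ on the strand of the gene, here the minus strand, with matches on either strand in capitals: Bub1 at chr2:127831810-127832109, Ccnb2 at chr9:70421505-70421804, Spc25 at chr2:69206164-69206463 and Nuf2 at chr1:169531415-169531714.
Bub1: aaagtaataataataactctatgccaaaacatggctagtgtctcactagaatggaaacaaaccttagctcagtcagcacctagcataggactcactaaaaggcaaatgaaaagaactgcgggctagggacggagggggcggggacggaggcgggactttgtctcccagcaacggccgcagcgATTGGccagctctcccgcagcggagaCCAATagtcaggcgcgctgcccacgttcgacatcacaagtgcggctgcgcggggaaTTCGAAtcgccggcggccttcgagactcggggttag
Ccnb2: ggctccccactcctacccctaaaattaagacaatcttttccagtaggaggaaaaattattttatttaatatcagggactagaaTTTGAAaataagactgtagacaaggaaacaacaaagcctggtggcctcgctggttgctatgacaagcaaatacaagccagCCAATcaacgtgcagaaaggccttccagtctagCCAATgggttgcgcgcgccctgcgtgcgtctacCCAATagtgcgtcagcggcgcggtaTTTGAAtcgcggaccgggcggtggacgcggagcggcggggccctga
Spc25: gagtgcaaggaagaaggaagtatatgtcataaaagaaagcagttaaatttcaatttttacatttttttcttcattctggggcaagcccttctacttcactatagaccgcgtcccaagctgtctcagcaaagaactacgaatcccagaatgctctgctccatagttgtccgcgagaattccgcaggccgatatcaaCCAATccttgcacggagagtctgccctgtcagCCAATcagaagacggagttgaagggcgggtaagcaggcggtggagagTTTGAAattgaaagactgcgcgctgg
Nuf2: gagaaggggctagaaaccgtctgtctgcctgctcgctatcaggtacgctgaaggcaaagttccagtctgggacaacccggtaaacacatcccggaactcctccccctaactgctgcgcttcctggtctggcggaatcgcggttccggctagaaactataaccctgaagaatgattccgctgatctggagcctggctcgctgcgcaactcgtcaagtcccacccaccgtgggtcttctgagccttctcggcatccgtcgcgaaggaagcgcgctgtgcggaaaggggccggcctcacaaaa
Counted from the transcript start, CHR matches begin at base 15 in Bub1, at bases -167 and 5 in Ccnb2 and at base 25 in Spc25. CCAAT matches begin upstream of the transcript start, at bases -68 and -42 in Bub1, at -87, -54 and -21 in Ccnb2 and at -55 and -23 in Spc25.

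Levels of the 49 genes were highest in stem and progenitor cells and lowest in drug-treated neurons and in wild-type cells at TN day 6. To follow the set as a whole, each gene's own mean over all arrays was subtracted and the 49 differences were averaged on each array; the resulting index is a description on the log2 scale. For the knockout it was 1.66 and 1.95 in ES cells, 1.74 and 1.77 in NP cells, 1.21 and 1.21 at TN day 2 and -0.46, -0.37 and -0.80 at TN day 6. In wild-type cells it was 2.04 and 1.96 in ES cells, 1.88 and 1.69 in NP cells, 0.84 and 0.52 at TN day 2 and -1.57, -1.44 and -1.52 at TN day 6. Knockout and wild-type arrays overlapped in NP cells, lay side by side in ES cells with the first knockout array lower, and were apart at TN day 2 and TN day 6, where the knockout arrays were higher. At TN day 5 the index was -1.72 and -1.82 with ICRF-193, against -1.34 and -0.77 with DMSO. In cortical neurons it was -1.74, -1.73 and -1.76 with ICRF-193, against -0.50, -0.47 and -0.48 with DMSO. The treated arrays lay below all DMSO arrays in both experiments, and the DMSO arrays were far apart at TN day 5 and close together in cortical neurons.

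**Figure D1:**
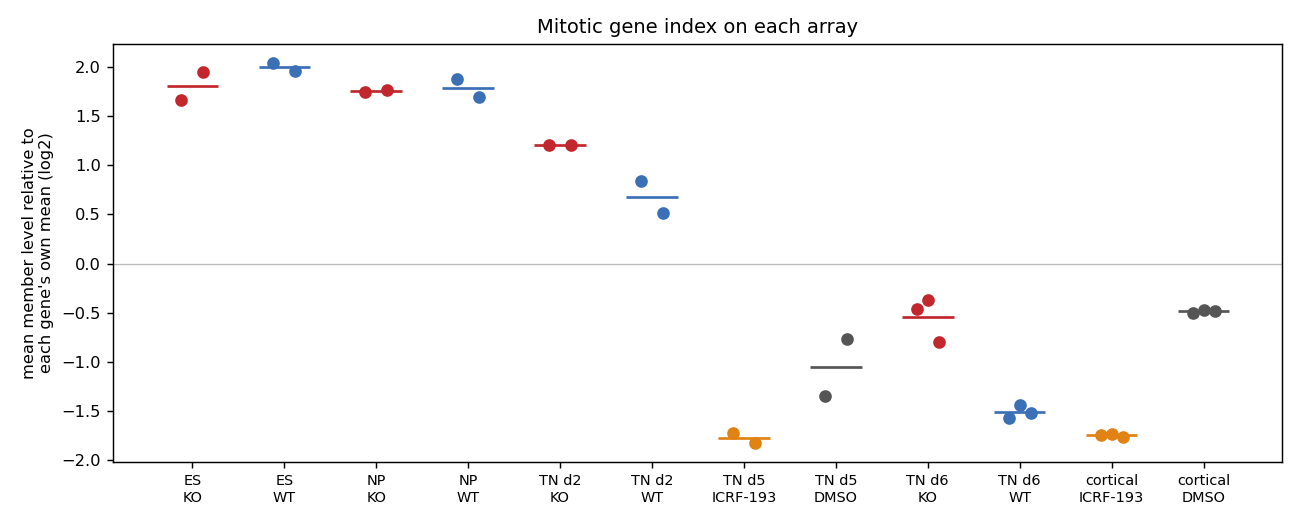
Mean level of the 49 mitotic genes on each array, relative to each gene's own mean over all arrays (log2, y axis), by group (x axis). Points are arrays and horizontal lines are group means. The ES and NP arrays lie between 1.66 and 2.04, the knockout arrays at TN day 6 between -0.80 and -0.37, and the treated cortical arrays between -1.76 and -1.73.

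Group means peaked in wild-type ES cells for 29 of the 49 genes, in wild-type NP cells for 10, in knockout cells at TN day 2 for 7 and in knockout NP cells for 3. They were lowest in ICRF-193-treated cortical neurons for 23 genes, in ICRF-193-treated cells at TN day 5 for 21 and in wild-type cells at TN day 6 for 5. The span between a gene's highest and lowest group mean ran from 2.41 for Smc2, a core subunit of both condensins, to 5.76 for Bub1 and 5.84 for Anln (anillin, which organises the cleavage furrow). These are log2 differences of one probe set with itself, and levels of different genes are not set against each other.

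**Figure D2:**
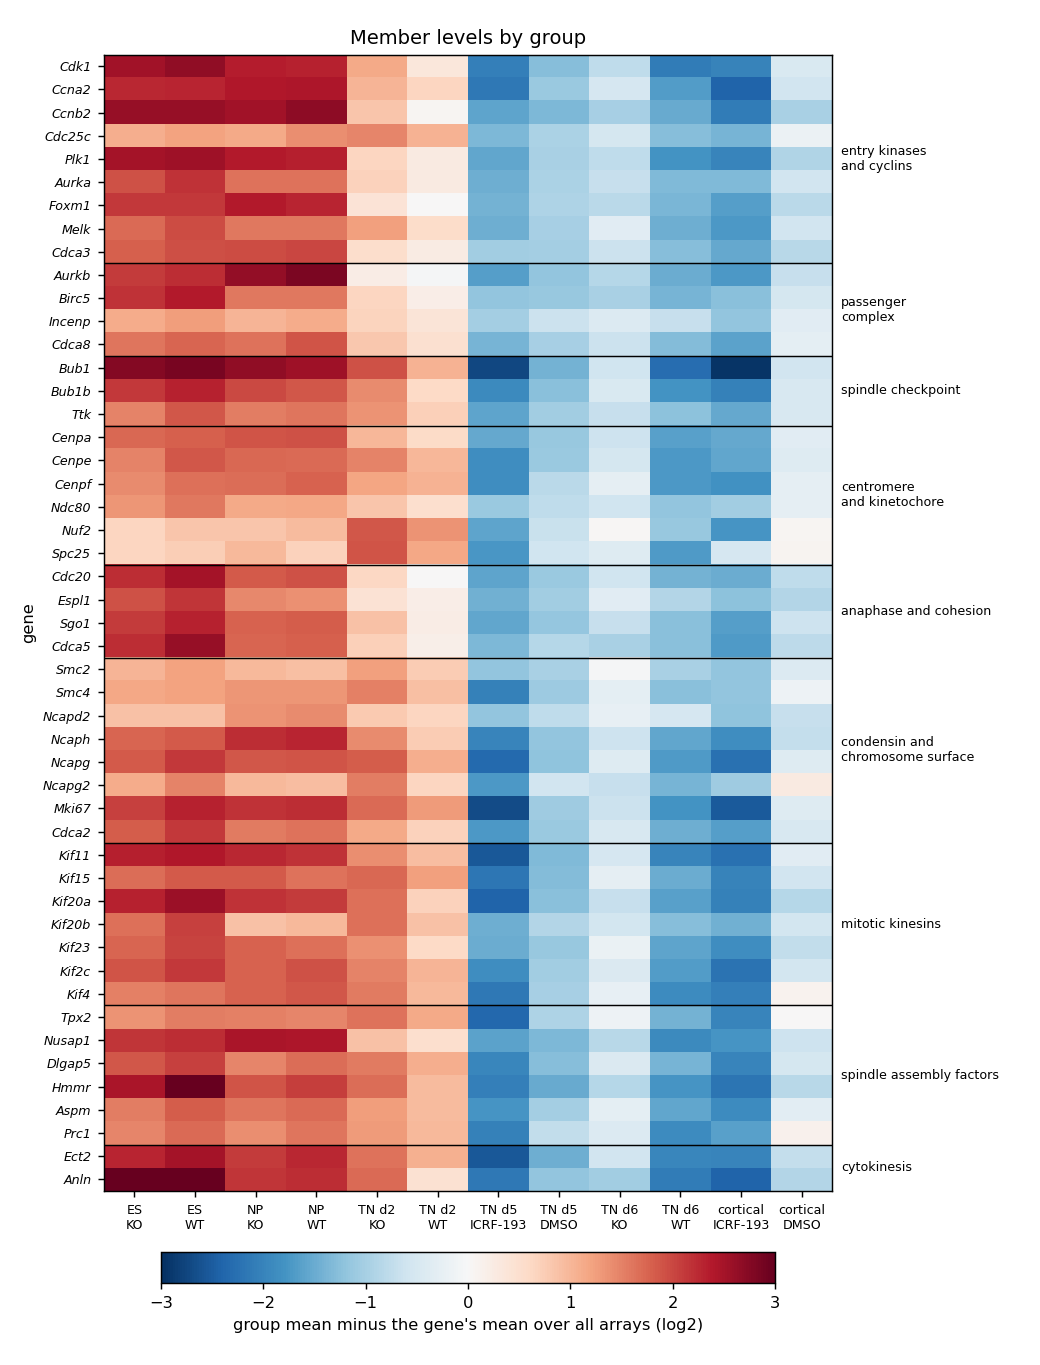
Group mean of each mitotic gene minus that gene's mean over all 28 arrays (colour, log2; values beyond 3 take the end colour), with genes in rows grouped by role and the 12 groups in columns. Most genes are above their mean through ES and NP cells and below it with ICRF-193 and in wild-type cells at TN day 6. Highest at TN day 2 in knockout cells are 7 genes: Cdc25c, Nuf2, Spc25, Smc2, Smc4, Ncapg2 and Tpx2.

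Between ES and NP cells few mitotic genes changed in wild type, and those that did went both ways. In limma with Benjamini-Hochberg adjustment over all 19938 genes, where a gene was called below an adjusted p of 0.05 (two-sided), 3 of the 49 rose and 11 fell. Among all genes 21.7% rose and 24.5% fell, so a smaller share of the mitotic genes was called. The median log2 fold change was -0.21 over the 49 and 0.05 over all genes. Aurkb, the kinase of the chromosomal passenger complex, had 10.98 and 10.97 in NP cells, against 10.32 and 10.39 in ES cells (0.62 ± 0.15 (SE), adjusted p = 0.00187). The condensin I subunits Ncapd2 (0.55 ± 0.09) and Ncaph (0.45 ± 0.16) also rose. Anln had 9.53 and 9.33 in NP cells, against 10.72 and 10.58 in ES cells, the largest decrease of the set (-1.22 ± 0.25, adjusted p = 0.000303). Kif20b, a kinesin of late mitosis (-1.07 ± 0.20), and Hmmr, a spindle assembly factor (-0.97 ± 0.23), followed. All 4 genes of anaphase and cohesion fell: Cdca5, sororin (-0.81 ± 0.19), Espl1, separase (-0.79 ± 0.19), Cdc20, an activator of the anaphase-promoting complex (-0.59 ± 0.17), and Sgo1, shugoshin (-0.50 ± 0.19). Without NP wild-type replicate 2, which leaves 1 array in that group, the median over the 49 was -0.13. Of the 14 calls, 8 held in every alternative analysis. In knockout cells 3 genes rose and 3 fell in the same step, where 16.3% of all genes rose and 20.7% fell, and none of these 6 calls held in every alternative analysis.

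By TN day 2 mitotic genes had fallen by unequal amounts in wild-type cells. Of the 49, 40 fell and none rose, where 26.6% of all genes fell and 21.6% rose, and the median was -1.05, against -0.08 over all genes. Entry kinases, cyclins and their regulators fell most, 8 of 9 with a median of -1.80. Aurkb had 8.35 and 7.89 at TN day 2, against 10.98 and 10.97 in NP cells, which is 7.22-fold lower (-2.85 ± 0.15, adjusted p = 1.57e-12). Ccnb2, cyclin B2, had 8.58 and 8.47 at TN day 2, against 11.18 and 11.12 in NP cells (-2.63 ± 0.18, adjusted p = 9.9e-11). In both genes the stages were far apart, and the arrays of a stage lay close together except for Aurkb at TN day 2. Foxm1, a transcription factor of the late cell cycle, fell by 2.27 ± 0.18, the polo-like kinase Plk1 by 2.07 ± 0.17, Cdk1 by 1.95 ± 0.21 and Cdc20 by 1.89 ± 0.17.

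The 9 genes not called at that step were spread over several roles. Spc25 had 8.94 and 8.72 at TN day 2, against 8.53 and 8.19 in NP cells (0.47 ± 0.20, adjusted p = 0.0546). Nuf2 had 8.92 and 8.57, against 8.36 and 8.34 (0.40 ± 0.18, adjusted p = 0.0686). In both, the TN day 2 arrays lay above the NP arrays. The other 7 had values of -0.41 to -0.10: Smc4, Smc2 and Ncapg2 of the condensins, the kinesins Kif15 and Kif20b, Cdc25c, a phosphatase that activates Cdk1, and Tpx2, which activates Aurora A at the spindle.

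Between TN day 2 and TN day 6 every one of the 49 genes fell in wild-type cells, where 11.9% of all genes fell and 16.7% rose. The median was -2.32, against 0.09 over all genes. Bub1, a kinase of the spindle checkpoint, had 5.31, 5.50 and 5.46 at TN day 6, against 8.85 and 8.64 at TN day 2, which is 9.99-fold lower (-3.32 ± 0.23, adjusted p = 8.08e-10). Mki67, which coats mitotic chromosomes, fell by 3.06 ± 0.21, and Ect2, the exchange factor that starts cytokinesis, fell by 3.04 ± 0.19. Spc25 and Nuf2 fell by 2.84 ± 0.18 and 2.47 ± 0.16. The decreases were smallest for Incenp, the scaffold of the passenger complex (-1.07 ± 0.15), Espl1 (-1.09 ± 0.17) and Ncapd2 (-1.14 ± 0.08). Aurkb, with the largest decrease of the step before, fell by 1.47 ± 0.14. All 49 calls held in each of the alternative analyses run.

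In ES cells no mitotic gene was called between knockout and wild type by limma, where 0.351% of all genes were called, and 4 of the 49 had an unadjusted p below 0.05, where 15% of all genes did. The median was -0.20, against 0.01 over all genes, and 48 of the 49 values were negative. The lowest value was that of Hmmr, with 8.47 and 9.43 in knockout cells, against 9.65 and 9.46 in wild type (-0.60 ± 0.23, adjusted p = 0.219). Anln had 9.87 and 10.70 in knockout cells, against 10.72 and 10.58 in wild type (-0.37 ± 0.25, adjusted p = 0.505). In both the first knockout array was the low one and the second lay near the wild-type arrays. With the first array as the one knockout ES array, which is then assumed to vary like the other groups, 9 of the 49 genes fell and none rose, where 11% of all genes fell and 14.1% rose. With the second array alone, none was called, where 0.296% of all genes were. The pluripotency and mesenchymal means of the first array, given above, moved with it, and their part in the result was not tested.

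In NP cells no mitotic gene was called by limma, where 0.627% of all genes were called, and none had an unadjusted p below 0.05, where 7.53% of all genes did. The values ran from -0.28 ± 0.17 (Cdc25c, adjusted p = 0.867) to 0.28 ± 0.20 (Spc25, adjusted p = 0.922), with a median of -0.03. Cdk1, for example, had 10.52 and 10.62 in knockout NP cells, against 10.66 and 10.36 in wild type, and these arrays overlapped. Some marker list means did not overlap: endothelial and mural (7.36 and 7.39 in knockout cells, against 6.65 and 6.56) and progenitor (9.86 and 9.85, against 10.19 and 10.08). Nor did pluripotency (5.78 and 5.73, against 6.13 and 6.15) or mesenchymal means (7.11 and 7.04, against 6.93 and 6.97). Neuronal, oligodendrocyte lineage and microglial means overlapped. Their part in the result was not tested. The knockout effect in NP cells minus that in ES cells was called for none of the 49, where 0.256% of all genes were called. Without knockout ES replicate 2 it was positive and called for 2 of the 49, where that held for 6.43% of all genes.

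At TN day 2 knockout cells had higher levels of mitotic genes than wild type. Of the 49, 18 rose and none fell, where 5.49% of all genes rose and 5.97% fell. All 49 values were positive, from 0.12 to 1.24 with a median of 0.48, against -0.04 over all genes. For 45 genes both knockout arrays lay above both wild-type arrays, which held for 20.5% of all genes. The genes that rose were all 3 spindle checkpoint kinases, 4 of 7 kinesins, 3 of 8 genes of condensin and the chromosome surface, 3 of 9 entry genes, 2 of 4 of anaphase and cohesion, and 1 each of the 6 kinetochore, 6 spindle assembly and 2 cytokinesis genes. None of the 4 passenger complex genes was called.

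Anln had 8.78 and 9.03 in knockout cells at TN day 2, against 7.63 and 7.71 in wild type, a 2.36-fold higher level (1.24 ± 0.25, adjusted p = 0.00208). Kif20a, a kinesin of the central spindle, had 9.43 and 9.62 in knockout cells, against 8.69 and 8.45 in wild type (0.96 ± 0.20, adjusted p = 0.00274). Ncapg2, a subunit of condensin II, had 8.21 and 8.26, against 7.28 and 7.41 (0.89 ± 0.15, adjusted p = 0.000378). In these 3 genes the arrays of each genotype lay close together and the genotypes were apart. Bub1 had 9.51 and 9.71 in knockout cells, against 8.85 and 8.64 in wild type (0.87 ± 0.25, adjusted p = 0.0256), and the related checkpoint kinase Bub1b rose by 0.80 ± 0.22. Cdk1 had 9.18 and 9.51, against 8.62 and 8.51 (0.78 ± 0.21, adjusted p = 0.0202). Ccnb2 rose by 0.79 ± 0.18 and Spc25, with 9.61 and 9.50 in knockout cells against 8.94 and 8.72 in wild type, by 0.73 ± 0.20 (adjusted p = 0.0192). Again no array of one genotype reached those of the other.

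Several genes with large decreases before TN day 2 were not called between the genotypes there. Aurkb had 8.36 and 8.40 in knockout cells, against 8.35 and 7.89 in wild type (0.25 ± 0.15, adjusted p = 0.342), where only the second wild-type array stood apart. Plk1 and Foxm1 had values of 0.38 ± 0.17 (adjusted p = 0.156) and 0.38 ± 0.18 (adjusted p = 0.203). Mki67 had 9.89 and 9.85, against 9.55 and 9.33 (0.43 ± 0.23, adjusted p = 0.265). Cenpf, a kinetochore protein, had the smallest value (0.12 ± 0.29, adjusted p = 0.871), with 8.16 and 8.03 in knockout cells between the wild-type arrays at 8.36 and 7.59.

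The count at TN day 2 rested on few arrays. Replicate 1 of the wild type was above replicate 2 for 47 of the 49 genes, by a median of 0.32, and by a median of 0.06 over all genes. Without knockout replicate 1 or 2, or wild-type replicate 1 or 2, the genes called numbered 8, 1, 10 and 6 in that order, all higher in knockout cells, where 5.75%, 1.34%, 2.19% and 4.74% of all genes rose. A fit to these 4 arrays alone called 7, where 0.963% of all genes rose. Of the 18 genes, Ncapg2 was the one called in every alternative. Markers of other cells moved with this comparison. Of 8 mesenchymal genes 4 rose in knockout cells, with list means of 9.53 and 10.01, against 7.47 and 9.22 in wild type. Of 10 neuronal genes 6 fell, with list means of 10.72 and 10.47, against 11.15 and 11.06, and of 12 progenitor genes 2 rose and 3 fell. Of 7 endothelial and mural genes 1 rose, with list means of 6.21 and 6.51, against 5.62 and 6.17. None of 6 astrocyte genes was called, with list means of 5.02 and 5.07, against 5.14 and 5.11. The means of the mesenchymal, neuronal, endothelial and astrocyte lists did not overlap between the genotypes, and their part in the result was not tested.

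Set against NP cells of the same genotype, 22 of the 49 genes fell and 4 rose in knockout cells at TN day 2, where 24.8% of all genes fell and 19.6% rose, with a median of -0.48. Nuf2 had 9.25 and 9.30 at TN day 2, against 8.17 and 8.32 in NP cells (1.03 ± 0.18, adjusted p = 4.44e-05). Spc25 had 9.61 and 9.50, against 8.59 and 8.69 (0.92 ± 0.20, adjusted p = 0.000551). Kif20b (0.78 ± 0.20) and Ncapg2 (0.56 ± 0.15) also rose. These 4 increases, and the decreases of Aurkb (-2.41 ± 0.15), Foxm1 (-1.97 ± 0.18) and Plk1 (-1.74 ± 0.17), held in each alternative. The difference between the genotypes was tested directly. The knockout effect at TN day 2 minus that in NP cells was called for Anln (1.31 ± 0.35, adjusted p = 0.0461) and Ncapg2 (0.85 ± 0.21, adjusted p = 0.029), where 1.38% of all genes were called in that direction. Neither call held in every alternative: with arrays centred on their medians the limma adjusted p was 0.0612 for Anln and 0.0611 for Ncapg2. Leaving out any of these arrays leaves 1 array in a group. The median difference over the 49 was then 0.37 to 0.71, against 0.57 in the main fit.

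By TN day 6 nearly all mitotic genes were higher in knockout cells. Of the 49, 46 rose and none fell, where 5.38% of all genes rose and 4.8% fell. Those shares cover calls of any size, and 24 of the 46 rose at least 2-fold. The median was 0.98, against 0.00 over all genes. For 48 genes all 3 knockout arrays lay above all 3 wild-type arrays, which held for 17% of all genes. Every measured gene rose in 7 roles: the 9 entry genes, the 3 checkpoint kinases, the 6 centromere and kinetochore genes, the 8 of condensin and the chromosome surface, the 7 kinesins, the 6 spindle assembly factors and the 2 of cytokinesis. In the passenger complex 2 of 4 rose, and in anaphase and cohesion 3 of 4.

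Bub1 had 7.15, 7.39 and 6.77 in knockout cells at TN day 6, against 5.31, 5.50 and 5.46 in wild type, a 3.2-fold higher level (1.68 ± 0.20, adjusted p = 5.61e-06). Kif4, a kinesin bound to chromosomes, had 6.63, 6.87 and 5.96 in knockout cells, against 4.92, 4.86 and 4.75 in wild type (1.65 ± 0.22, adjusted p = 1.8e-05). Kif11, the motor that separates spindle poles, had 7.37, 7.38 and 6.66, against 5.82, 5.78 and 5.42 (1.47 ± 0.20, adjusted p = 3.24e-05). The third knockout array was the lowest of its group in all 3, yet above all wild-type arrays. It was below the first for 47 and below the second for 48 of the 49 genes. Prc1, which bundles microtubules of the central spindle, rose by 1.47 ± 0.19 and Cenpf by 1.46 ± 0.24.

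Among entry genes, Cdk1 had 7.61, 7.64 and 7.09 in knockout cells, against 5.84, 6.25 and 6.23 in wild type (1.34 ± 0.18, adjusted p = 1.57e-05). Cyclin A2 (Ccna2) rose by 1.18 ± 0.16, Plk1 by 1.03 ± 0.13 and Foxm1 by 0.55 ± 0.15. Mki67 had 7.69, 7.79 and 7.15, against 6.34, 6.45 and 6.33 (1.17 ± 0.18, adjusted p = 0.000143), and Smc2 had 8.06, 8.24 and 7.99, against 7.26, 7.32 and 6.95 (0.92 ± 0.16, adjusted p = 0.000296). The genotypes did not overlap in Cdk1, Mki67 or Smc2. Cenpe, a kinetochore motor, had 6.50, 6.59 and 6.09 in knockout cells, against 5.20, 5.24 and 5.19 in wild type (1.19 ± 0.15). Tpx2 had 8.09, 8.06 and 7.53, against 6.48, 6.82 and 6.59 (1.26 ± 0.17), and Ect2 had 7.68, 7.71 and 7.26, against 6.20, 6.17 and 6.09 (1.40 ± 0.17). These kinetochore, spindle and cytokinesis genes had increases of more than 2-fold. The increases of Aurkb, Cdc20 and Kif20b were below 2-fold. Aurkb had 7.32, 7.51 and 7.09, against 6.49, 6.71 and 6.77 (0.65 ± 0.12), Cdc20 had 7.46, 7.47 and 7.21, against 6.52, 6.70 and 6.44 (0.83 ± 0.14), and Kif20b had 5.90, 6.02 and 5.91, against 5.07, 5.34 and 5.28 (0.72 ± 0.16), again with no overlap between the genotypes.

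The 3 genes not called were Birc5 (survivin, of the passenger complex; 0.41 ± 0.15, adjusted p = 0.11), Incenp (0.30 ± 0.14, adjusted p = 0.209) and Cdca5 (0.29 ± 0.15, adjusted p = 0.298). Birc5 had 5.84, 5.83 and 5.56 in knockout cells, against 5.29, 5.36 and 5.35 in wild type, with no overlap. Cdca5 had 6.77, 7.17 and 6.49, against 6.25, 6.85 and 6.45, and was the one gene whose arrays overlapped. The smallest increase that was called was that of Ncapd2, with 9.24, 9.20 and 9.09, against 8.95, 9.04 and 8.79 (0.25 ± 0.08, adjusted p = 0.0357); this call ended, among others, with arrays centred on their medians (adjusted p = 0.064). In all, 40 of the 46 calls held in each alternative. Progenitor markers moved with this comparison: 8 of 12 rose and none fell, with list means of 8.70, 8.83 and 8.42 in knockout cells, against 7.60, 7.68 and 7.57 in wild type. Pax6 and Sox2, transcription factors of neural progenitors, rose by 2.32 ± 0.24 and 1.57 ± 0.22. The neuronal means were 11.26, 11.20 and 11.24, against 11.39, 11.36 and 11.35, and 1 of the 10 neuronal genes rose and 1 fell. Of 6 genes of the oligodendrocyte lineage 2 rose, with list means of 6.34, 6.58 and 6.37 in knockout cells, against 6.00, 5.89 and 6.07 in wild type. None of 8 mesenchymal genes was called, with list means of 7.27, 7.37 and 7.10, against 6.75, 6.82 and 6.73. The means of these 4 lists did not overlap between the genotypes, and their part in the result was not tested.

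**Figure D3:**
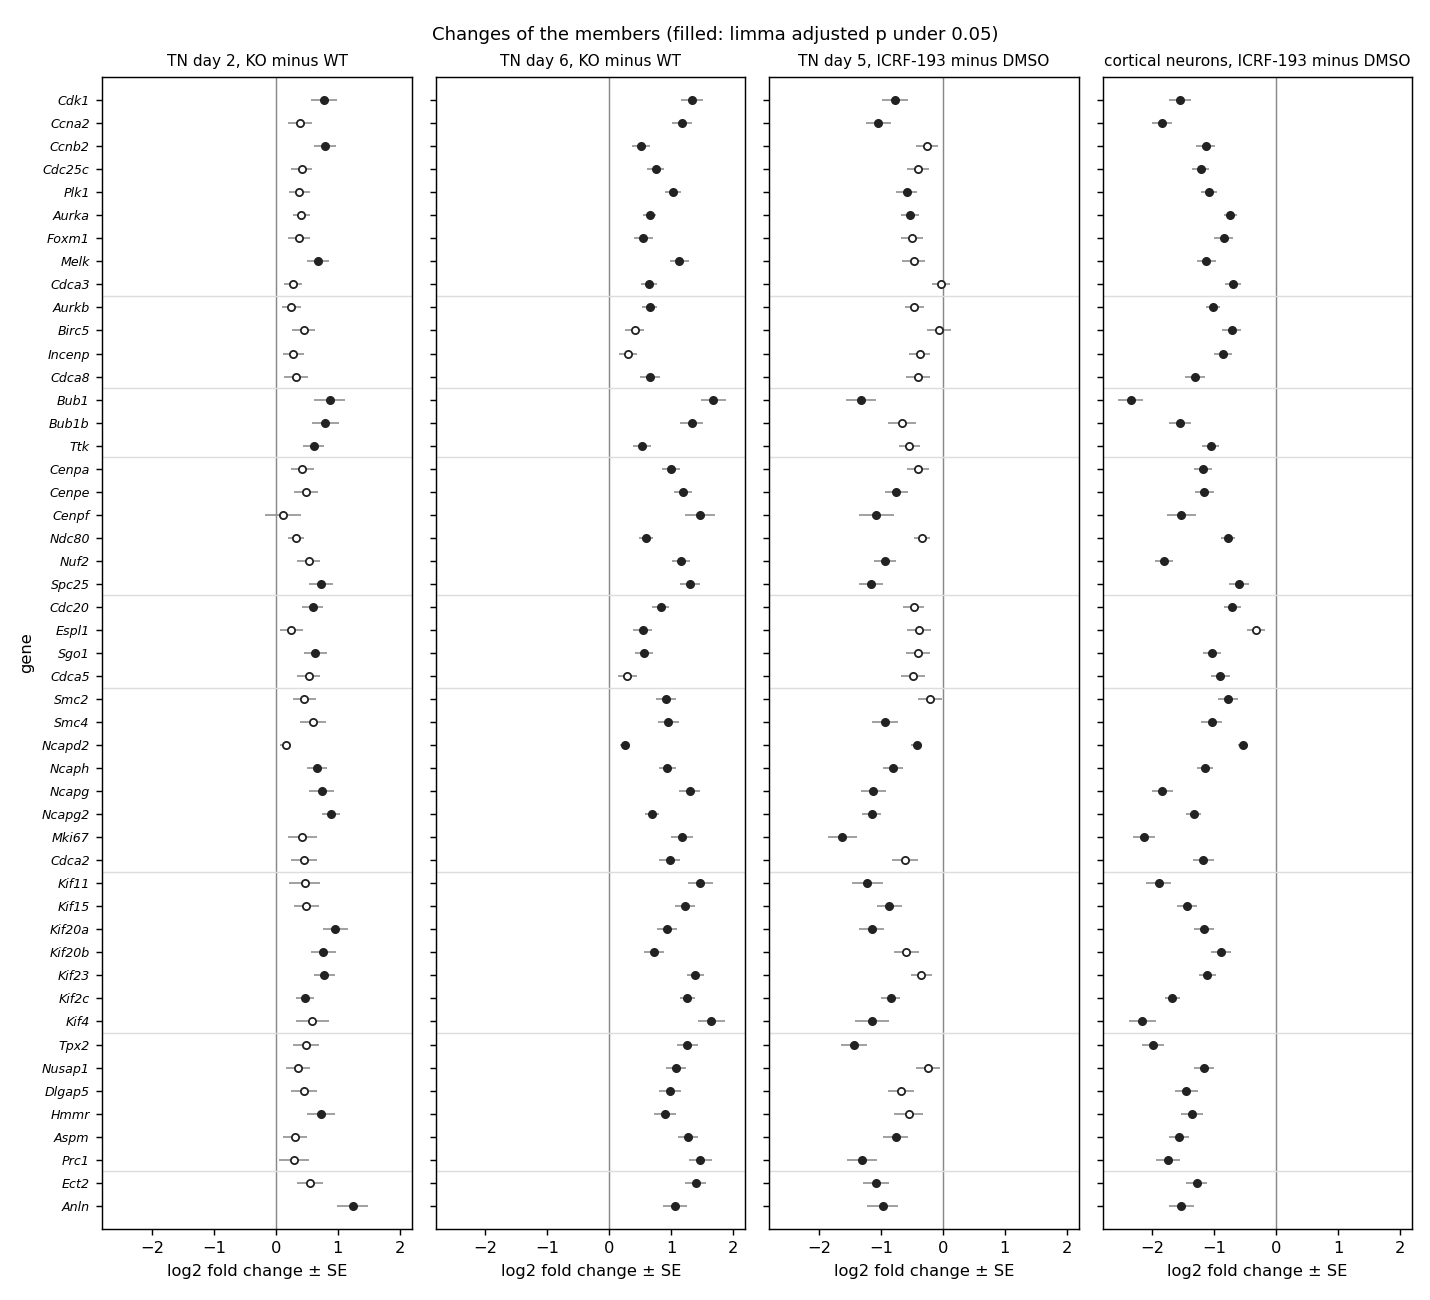
Log2 fold change of each mitotic gene with its SE (x axes) in 4 comparisons, with genes in rows grouped by role. Filled points have a limma adjusted p below 0.05: 18 and 46 are filled on the right of zero for knockout against wild-type cells at TN day 2 and TN day 6, and 25 and 48 on the left of zero for ICRF-193 against DMSO at TN day 5 and in cortical neurons.

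The decline between TN day 2 and TN day 6 was present in both genotypes. In knockout cells all 49 genes fell, where 12.8% of all genes fell and 22.1% rose, by between 0.79 ± 0.17 (Espl1) and 2.71 ± 0.22 (Anln), with a median of -1.78. The knockout effect at TN day 6 minus that at TN day 2 was called for 4 members, all positive, where 2.71% of all genes were. They were Cenpf (1.34 ± 0.37, adjusted p = 0.0425), Prc1 (1.17 ± 0.31, adjusted p = 0.0293), Aspm, a spindle pole protein (0.96 ± 0.26, adjusted p = 0.0346), and Kif2c, a kinesin that depolymerises microtubules (0.79 ± 0.19, adjusted p = 0.0162). At TN day 2 Aspm had 8.79 and 8.51 in knockout cells, against 8.66 and 8.01 in wild type. At TN day 6 it had 7.09, 7.27 and 6.93 in knockout cells, against 5.69, 5.86 and 5.93 in wild type. Its arrays overlapped at TN day 2 and were well apart at TN day 6. None of the 4 calls held in every alternative. Without TN day 6 wild-type replicate 1, 2 or 3, this difference was positive and called for 1, 1 and 3 members. That held for 1.76%, 2.26% and 1.77% of all genes. Without TN day 6 knockout replicate 1, 2 or 3, it was so for 1, 1 and 14 members. There the shares of all genes were 1.93%, 1.93% and 2.39%. Leaving out a TN day 2 array leaves 1 array in a group. The median difference over the 49 was then 0.32 to 0.62, against 0.46 in the main fit. All 18 genes called at TN day 2 were among the 46 called at TN day 6 (39.1% of the 46). With 46 of the 49 called at TN day 6, such inclusion was nearly fixed in advance and does not show likeness.

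**Figure D4:**
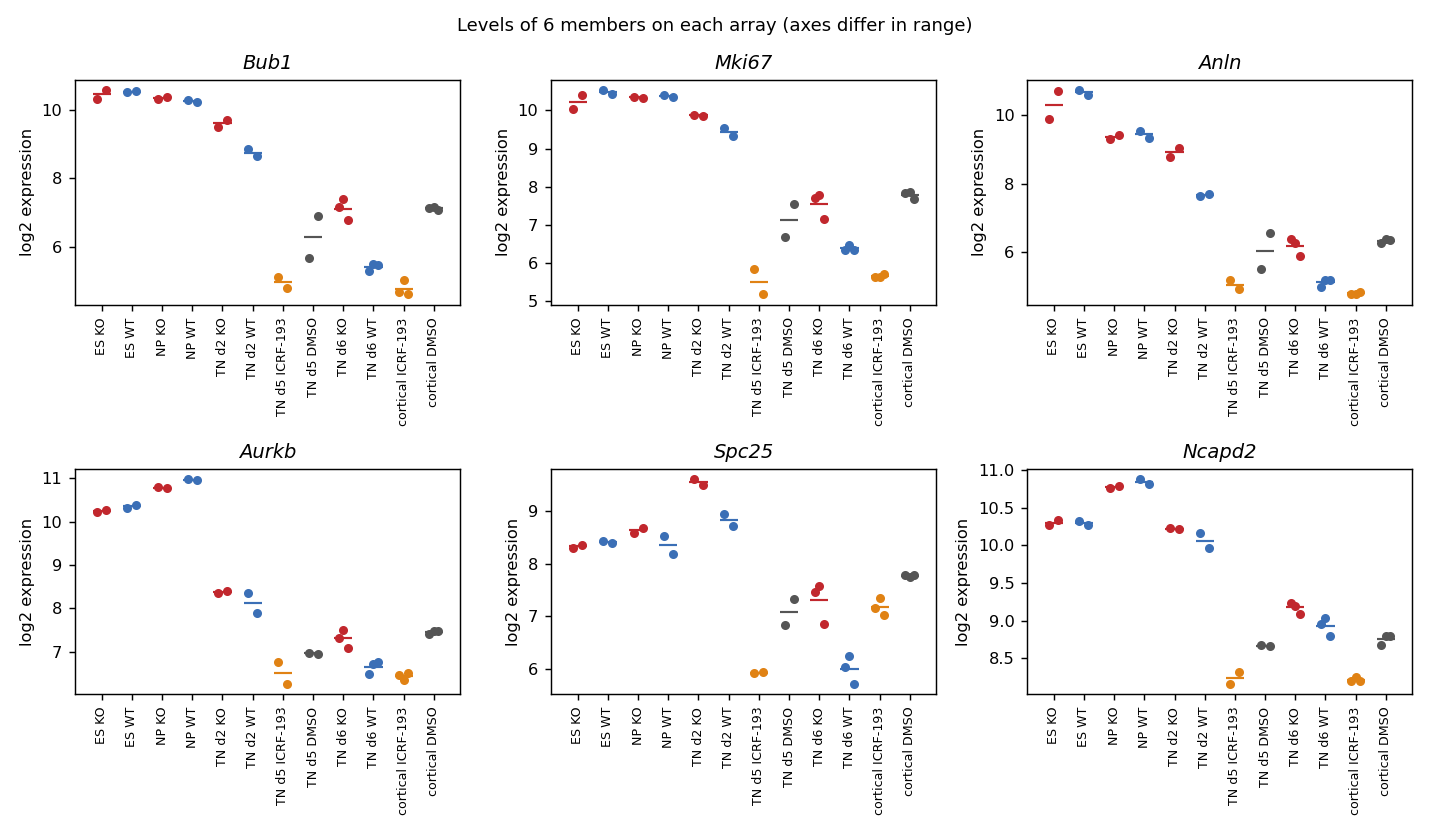
Log2 level of Bub1, Mki67, Anln, Aurkb, Spc25 and Ncapd2 on every array (points) by group; each gene has its own y axis. Anln is lower in NP than in ES cells, Aurkb drops most by TN day 2, and Spc25 has its highest values, 9.61 and 9.50, in knockout cells at TN day 2.

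Cells treated with ICRF-193 at TN day 5 had lower levels of many mitotic genes than DMSO-treated cells. Of the 49, 25 fell and none rose, where 6.37% of all genes fell and 2.51% rose. Those shares cover calls of any size, and 13 of the 49 values were at least 2-fold. All 49 values were negative, with a median of -0.61, against 0.02 over all genes. For 39 genes both treated arrays lay below both DMSO arrays, which held for 23.4% of all genes. The genes that fell were 6 of 8 of condensin and the chromosome surface, 5 of 7 kinesins, 4 of 6 centromere and kinetochore genes, 4 of 9 entry genes, 3 of 6 of spindle assembly, both of cytokinesis and 1 of 3 checkpoint kinases. None of the passenger complex or of anaphase and cohesion was called.

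Mki67 had 5.83 and 5.16 with ICRF-193, against 6.68 and 7.54 with DMSO, a 3.07-fold lower level (-1.62 ± 0.23, adjusted p = 4.71e-05). Tpx2 had 5.89 and 5.47 with ICRF-193, against 6.70 and 7.53 with DMSO (-1.43 ± 0.21, adjusted p = 0.00011). Bub1 had 5.13 and 4.81, against 5.68 and 6.90 (-1.32 ± 0.25, adjusted p = 0.00139). In all 3 the treated arrays lay below both DMSO arrays, and the second DMSO array was well above the first. Spc25 had 5.92 and 5.93 with ICRF-193, against 6.83 and 7.33 with DMSO (-1.16 ± 0.20, adjusted p = 0.000504). Ncapg2 had 4.97 and 4.99, against 5.87 and 6.39 (-1.15 ± 0.15, adjusted p = 1.25e-05), and Kif2c fell by 0.84 ± 0.15. The calls of Mki67, Tpx2, Spc25, Ncapg2 and Kif2c, 5 of the 25, held in each alternative. The values nearest 0 were those of Cdca3, a regulator of mitotic entry (-0.03 ± 0.15, adjusted p = 0.93), with 6.77 and 6.60 with ICRF-193, against 6.71 and 6.72 with DMSO, and of Birc5 (-0.06 ± 0.19, adjusted p = 0.886).

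DMSO replicate 1 was below DMSO replicate 2 for 46 of the 49 genes, by a median of 0.53, and over all genes the median difference was 0. Without DMSO replicate 2, 8 genes were called, where 2.4% of all genes fell, and without the other arrays in turn 19 to 34, where 3% to 7.65% fell. A fit to these 4 arrays alone called 5, where 1.72% of all genes fell. Progenitor markers moved with the treatment: 6 of 12 fell and none rose, with list means of 6.47 and 6.47 with ICRF-193, against 7.62 and 8.25 with DMSO. The second DMSO array was the higher one in this mean as in the mitotic index. Fabp7, a fatty acid binding protein of radial glia, had 5.34 and 5.43 with ICRF-193, against 9.92 and 11.31 with DMSO. The neuronal means were 11.07 and 11.14, against 11.25 and 11.31, and 2 of the 10 neuronal genes fell and 1 rose. Of 8 mesenchymal genes 1 fell, with list means of 7.34 and 7.32 with ICRF-193, against 7.77 and 8.59 with DMSO, where the second DMSO array was again the higher one. Of 6 astrocyte genes 1 fell (5.47 and 5.19, against 5.64 and 5.75), and none of 8 microglial genes was called (5.77 and 5.64, against 5.60 and 5.44). The means of these 5 lists did not overlap between treatments. Their part in the result was not tested.

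In cortical neurons, 48 of the 49 mitotic genes fell with ICRF-193 and none rose, where 13.7% of all genes fell and 9.72% rose. Those shares cover calls of any size, and 36 of the 48 fell at least 2-fold. The median was -1.17, against 0.04 over all genes. For 48 genes all 3 treated arrays lay below all 3 DMSO arrays, which held for 25.9% of all genes. Of the 48 calls, 47 held in each alternative.

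Bub1 had 4.67, 5.04 and 4.61 with ICRF-193, against 7.14, 7.15 and 7.08 with DMSO, a 5.1-fold lower level (-2.35 ± 0.20, adjusted p = 1.5e-08). Kif4 had 4.64, 4.67 and 4.71 with ICRF-193, against 6.88, 6.86 and 6.75 with DMSO (-2.16 ± 0.22, adjusted p = 1.66e-07). Mki67 had 5.62, 5.62 and 5.70, against 7.84, 7.85 and 7.66 (-2.14 ± 0.18, adjusted p = 1.48e-08). The arrays of each treatment lay close together in these genes and the treatments were far apart. Tpx2 fell by 1.99 ± 0.17, Kif11 by 1.90 ± 0.20, the condensin I subunit Ncapg by 1.84 ± 0.17 and Ccna2 by 1.84 ± 0.16. Cdk1 had 6.13, 6.09 and 6.37, against 7.64, 7.87 and 7.73 (-1.55 ± 0.18, adjusted p = 9.1e-07), again without overlap. Ect2 had 6.19, 6.16 and 6.05 with ICRF-193, against 7.39, 7.47 and 7.36 with DMSO (-1.28 ± 0.17), and Cenpe had 5.25, 5.45 and 5.43, against 6.51, 6.56 and 6.54 (-1.16 ± 0.15). Aurkb had 6.46, 6.34 and 6.51, against 7.41, 7.49 and 7.49 (-1.02 ± 0.12). These 3 fell by about as much as the median gene. Decreases below 2-fold were seen for Kif20b, with 5.23, 5.04 and 4.91, against 5.94, 5.95 and 5.96 (-0.89 ± 0.16), for Smc2, with 6.94, 7.08 and 6.82, against 7.65, 7.80 and 7.73 (-0.78 ± 0.16), and for Cdc20, with 6.54, 6.48 and 6.46, against 7.05, 7.26 and 7.31 (-0.71 ± 0.14).

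The gene not called was Espl1, with 5.71, 6.08 and 6.19 with ICRF-193, against 6.41, 6.15 and 6.43 with DMSO (-0.33 ± 0.15, adjusted p = 0.125), and it was the one whose arrays overlapped. The smallest decreases that were called were those of Ncapd2 (-0.53 ± 0.08, adjusted p = 2e-05) and Spc25 (-0.60 ± 0.16, adjusted p = 0.00995). Spc25 had 7.15, 7.34 and 7.03, against 7.79, 7.74 and 7.78, and its call ended without treated replicate 3 (adjusted p = 0.0519). Markers of several other cells moved with the treatment. Of 12 progenitor genes 7 fell and 1 rose, with list means of 7.62 to 7.70 with ICRF-193, against 8.57 to 8.59 with DMSO. Of 6 genes of the oligodendrocyte lineage 4 fell (5.99 to 6.03, against 7.50 to 7.61), and of 6 astrocyte genes 4 fell (5.88 to 5.94, against 6.99 to 7.23). Of 8 microglial genes 7 rose (7.01 to 7.12, against 6.29 to 6.39). Of 10 neuronal genes 4 fell and 1 rose (10.87 to 10.92, against 11.26 to 11.30). Of 9 pluripotency genes 1 rose (5.42 to 5.47, against 5.26 to 5.32), and none of 8 mesenchymal genes was called (5.98 to 6.01, against 5.82 to 5.92). None of these list means overlapped between treatments, and their part in the result was not tested.

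The effect of ICRF-193 in cortical neurons minus that at TN day 5 was called for 6 members, all negative, where 2.68% of all genes were. They were Kif2c (-0.84 ± 0.19, adjusted p = 0.00971), Nuf2 (-0.88 ± 0.23, adjusted p = 0.027), Ccnb2 (-0.90 ± 0.24, adjusted p = 0.031), Nusap1, a microtubule-associated protein of the spindle (-0.92 ± 0.25, adjusted p = 0.0321), Cdca8, borealin of the passenger complex (-0.91 ± 0.25, adjusted p = 0.0346), and Cdc25c (-0.82 ± 0.22, adjusted p = 0.0375). In cortical neurons Ccnb2 had 6.32, 6.43 and 6.31 with ICRF-193, against 7.41, 7.54 and 7.54 with DMSO. At TN day 5 it had 6.72 and 7.04 with ICRF-193, against 6.72 and 7.55 with DMSO. Its arrays were apart in cortical neurons and overlapped at TN day 5. Without cortical DMSO replicate 1, 2 or 3, the difference was negative and called for 4, 1 and 1 members. That held for 2.31%, 2.32% and 2.2% of all genes. Without cortical treated replicate 1, 2 or 3, it was so for 2, 4 and 2 members. There the shares of all genes were 2.19%, 2.29% and 2.25%. Leaving out a TN day 5 array leaves 1 array in a group. The median difference over the 49 was then -0.90 to -0.32, against -0.57 in the main fit. None of the 6 calls held in every alternative. For the other 43 of the 49 a difference between the experiments was not shown. The mean index with DMSO was lower at TN day 5 (-1.06) than in cortical neurons (-0.48). With ICRF-193 it was similar in both (-1.77 and -1.74). The part of these starting levels in the differences was not tested. All 25 genes called at TN day 5 were among the 48 called in cortical neurons (52.1% of the 48). With 48 of the 49 called in cortical neurons, this inclusion too was nearly fixed in advance.

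Genes with a large increase in knockout cells at TN day 6 tended to be those with a large decrease in treated cortical neurons. Across the 49 genes the log2 fold changes of these comparisons, which have no array in common, had a Pearson correlation of -0.74 and a Spearman correlation of -0.73. For knockout cells at TN day 6 and ICRF-193 at TN day 5 both were -0.67, and for the 2 drug experiments they were 0.73 and 0.69. The knockout effect at TN day 2 was less alike, with -0.22 and -0.23 for cortical neurons and 0.23 and 0.24 for TN day 6. These values describe 49 genes, which are not independent replicates and share a platform, a range of levels and a scale. Bub1 and Kif4 led in both, at 1.68 and 1.65 in knockout cells at TN day 6 and at -2.35 and -2.16 in treated cortical neurons. Ncapd2 had small values in both (0.25 and -0.53). Spc25 stood off this trend, with 1.31 at TN day 6 and -0.60 in treated cortical neurons. Espl1 was called at TN day 6 (0.54 ± 0.15, adjusted p = 0.0245) and, as given above, not in cortical neurons.

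**Figure D5:**
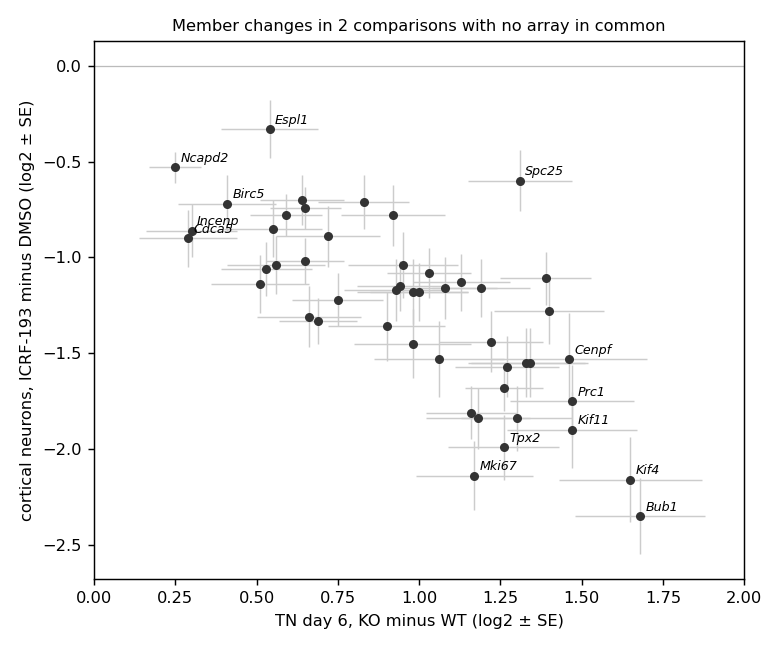
Log2 fold change of each mitotic gene in knockout against wild-type cells at TN day 6 (x axis) and in ICRF-193- against DMSO-treated cortical neurons (y axis), with SE bars; each point is 1 of 49 genes. The points run from Ncapd2 and Espl1 at the upper left to Bub1 at the lower right (Pearson correlation -0.74).

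Other genes of the cell cycle were followed with 5 further lists. Their counts stand beside the shares of all genes given above: 5.49% rose and 5.97% fell in knockout cells at TN day 2, 5.38% rose and 4.8% fell at TN day 6, and with ICRF-193 2.51% rose and 6.37% fell at TN day 5 and 9.72% rose and 13.7% fell in cortical neurons. Of 61 measured genes with other roles in mitosis, 24 rose and 1 fell in knockout cells at TN day 2, and 41 rose and 1 fell at TN day 6, with medians of 0.49 and 0.56. With ICRF-193, 20 of the 61 fell at TN day 5 and 49 in cortical neurons, with medians of -0.40 and -0.82, and none rose. Top2a encodes the α enzyme, which separates chromosomes in mitosis and is itself a target of the drug. It had 8.78, 8.79 and 8.19 in knockout cells at TN day 6, against 6.62, 7.11 and 6.69 in wild type (1.78 ± 0.18, adjusted p = 3.1e-07). It had 6.12, 6.16 and 6.15 with ICRF-193 in cortical neurons, against 8.76, 8.68 and 8.71 with DMSO (-2.57 ± 0.18, adjusted p = 3.13e-10), and fell by 2.45 ± 0.21 at TN day 5. The groups were apart in both of the comparisons given by array. Next at TN day 6 were Pbk, a mitotic kinase (1.40 ± 0.16), and Bora, a cofactor of Aurora A (1.34 ± 0.16). In cortical neurons Pbk (-2.23 ± 0.16) and the kinetochore scaffold Knl1 (-2.08 ± 0.20) followed Top2a, and at TN day 5 the checkpoint protein Mad2l1 (-1.24 ± 0.20) and Knl1 (-1.16 ± 0.25) did. At TN day 2 the largest increases in knockout cells were those of Gtse1 (1.11 ± 0.16), Cenpi (1.09 ± 0.23) and Cenpp and Psrc1 (1.06 ± 0.15 and 1.06 ± 0.20); Cdc25b, another activator of cyclin-dependent kinases, was the gene that fell (-0.72 ± 0.21), and at TN day 6 it was Cenpt (-0.34 ± 0.11).

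Of 13 genes of the anaphase-promoting complex, its activator Fzr1 included, which also serve outside mitosis, none was called in knockout cells at TN day 2 and 2 fell at TN day 6 (Anapc10 by 0.45 ± 0.11 and Cdc16 by 0.36 ± 0.09). With ICRF-193 none was called at TN day 5 and 1 fell in cortical neurons (Anapc13, -0.36 ± 0.08). Of 9 cohesin genes, none was called in knockout cells at either TN day, and 1 fell in each drug experiment (Pds5b by 0.39 ± 0.09 at TN day 5 and Rad21 by 0.18 ± 0.06 in cortical neurons). These counts of 0, 1 or 2 genes are too few to be set apart from those shares. The medians of the 2 lists in these 4 comparisons lay between -0.17 and 0.04. In wild-type cells 8 of the 9 cohesin genes (Smc1a, Smc3, Rad21, Stag1, Stag2, Pds5b, Wapl and Nipbl, with Pds5a not called) rose between NP cells and TN day 2, where 21.6% of all genes rose, led by Stag1 (1.69 ± 0.11); 40 of the 49 mitotic genes fell in that step.

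Of 16 genes of the MuvB complex, the pocket proteins and the E2F family, which control transcription in the cell cycle, 3 rose and 1 fell in knockout cells at TN day 2, and 4 rose and 2 fell at TN day 6. E2f8 rose at both (0.77 ± 0.21 and 0.84 ± 0.17), E2f7 rose by 0.39 ± 0.12 at TN day 2, E2f3 rose by 0.67 ± 0.11 at TN day 6, and Rbl2, which encodes p130 of the DREAM complex, fell by 0.59 ± 0.10 at TN day 6. With ICRF-193, 1 fell at TN day 5 (Rbl2, -0.48 ± 0.12) and 5 in cortical neurons, led by E2f8 (-0.97 ± 0.17), Rbl1 (-0.94 ± 0.15) and E2f1 (-0.71 ± 0.14). Of 6 cyclin-dependent kinase inhibitors, Cdkn2a rose by 0.67 ± 0.20 and Cdkn2d fell by 0.35 ± 0.10 in knockout cells at TN day 2, and Cdkn1c rose by 0.68 ± 0.15 at TN day 6. The other 3 (Cdkn1b, Cdkn2b and Cdkn2c) were not called in knockout cells at either TN day. None of the 6 was called with ICRF-193 at TN day 5, and Cdkn2c (-1.65 ± 0.24) and Cdkn2d (-0.51 ± 0.08) fell in cortical neurons.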

How the data were processed

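The deposited values of 28 Affymetrix arrays were read as log2 expression per probe set, since they run from 1.963 to 13.99; neither base nor summarization is given in the sources used here. The authors used oligo 1.14.0, per the submitters' processing notes. Of 35556 probe sets, 21789 map to 1 gene symbol in the platform annotation, 1621 to several and 12146 have no entry. For each gene the probe set with the highest mean was kept, which left 19938 genes (999 had several). No further normalization was applied, and levels of different probe sets are not compared.

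The 12 groups were fitted as group means in limma 3.58.1 (R 4.3.3), leaving 16 residual degrees of freedom, to which the shared prior added 4.87. Adjusted p-values are two-sided, Benjamini-Hochberg over all genes, in 16 comparisons, with a gene called below 0.05; ± gives the SE of a log2 fold change. The fitting code was tested on simulated data. The genes and lists were chosen with earlier results of these data known. In each comparison the text names leading genes, those called against the majority, those not called where nearly all were, and 1 fixed example per role; of the further lists it names the genes called with the largest changes, and every gene of short lists. Members named beyond this were chosen after their values were seen. Alternatives were other normalizations, filters, probe sets, fits and leaving out each replicate. Precision is limited by 2 or 3 arrays in a group. The labels give no batch.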

Additional observations from a re-analysis of the deposited data

Results flagged for a closer look

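Effects of the same contrast differed between stages or experiments, by the test of the difference in limma, in 12 cases. The knockout effect was larger at TN day 2 than in NP cells for Ncapg2 (0.85 ± 0.21, adjusted p = 0.029) and Anln (1.31 ± 0.35, adjusted p = 0.0461). It was larger at TN day 6 than at TN day 2 for Cenpf (1.34 ± 0.37, adjusted p = 0.0425), Kif2c (0.79 ± 0.19, adjusted p = 0.0162), Aspm (0.96 ± 0.26, adjusted p = 0.0346) and Prc1 (1.17 ± 0.31, adjusted p = 0.0293). The decrease with ICRF-193 was larger in cortical neurons than at TN day 5 for Ccnb2 (-0.90 ± 0.24, adjusted p = 0.031), Cdc25c (-0.82 ± 0.22, adjusted p = 0.0375), Cdca8 (-0.91 ± 0.25, adjusted p = 0.0346), Nuf2 (-0.88 ± 0.23, adjusted p = 0.027), Kif2c (-0.84 ± 0.19, adjusted p = 0.00971) and Nusap1 (-0.92 ± 0.25, adjusted p = 0.0321). In the drug comparison the DMSO levels differed (mean index of -1.06 at TN day 5 and -0.48 in cortical neurons). The treated levels were similar (-1.77 and -1.74), and the part of the starting levels was not tested. None of these 12 calls held in every alternative analysis. No group held more than 3 arrays, so single arrays were not tested for standing apart within a group.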

How the results depend on the processing

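Over all members, comparisons and alternatives, 10248 values kept their side of the threshold, 176 passed it newly and 307 no longer passed it. Values near 0 could change sign. The median knockout effect over members in NP cells was -0.03 in the main fit and 0.05 without NP wild-type replicate 1. Counts of called genes moved by over 1.5 times as follows. A fit to only the arrays compared called 7 in knockout cells at TN day 2, 5 with ICRF-193 at TN day 5 and 0 between NP and ES cells in the knockout. In that order 1.58%, 1.93% and 7.13% of all genes were called, against 11.5%, 8.89% and 37% in the main fit. Array weights gave 15 with ICRF-193 at TN day 5 and 1 between NP and ES cells in the knockout. There 3.72% and 17.7% of all genes were called. For the difference in knockout effect at TN day 2 from NP they gave 4, where 3.81% of all genes were called. For that at TN day 6 from TN day 2 they gave 11, where 7.8% were called. For the difference in drug effect in cortical neurons from TN day 5 they gave 2, where 4.18% were called. The difference at TN day 2 from NP had 1 with quantile normalization, 0 with median-centred arrays and 1 with the replicate block. In that order 3.19%, 2.31% and 2.97% of all genes were called. The cause was not tested. Leaving out each replicate gave 0 to 9 in ES cells, 1 to 10 at TN day 2 and 40 to 45 at TN day 6 for the knockout, 8 to 34 at TN day 5 and 47 to 48 in cortical neurons for ICRF-193, 8 to 14 and 2 to 13 between NP and ES cells in wild type and knockout, and 0 to 2, 0 to 2, 0 to 14 and 0 to 18 for the 4 differences of effects. The share of all genes called moved in these fits too. Same-numbered arrays did not deviate together throughout (correlations of -0.23 in NP cells to 0.38 at TN day 5). With 2 or 3 arrays in a group, these values cannot show whether the numbers pair arrays. With the number as a replicate block, 0, 0, 21 and 43 genes were called for the knockout in ES cells, NP cells, at TN day 2 and at TN day 6. There 0.271%, 0.552%, 11.1% and 9.97% of all genes were called. For ICRF-193 the block gave 25 at TN day 5 and 48 in cortical neurons, where 7.95% and 22.8% of all genes were called. A crossed pairing in NP cells, chosen after seeing the data, also gave 0.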
